A study of Mus musculus with 7 samples.

Results

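A set of 10 genes of neutrophil granules and their cytosol, Cd177, S100a8, S100a9, Retnlg, Ngp, Camp, Ltf, Elane, Mpo and Lcn2, were followed across libraries of sorted muscle cells from mice kept in normocapnia (NC) or hypercapnia (HC). They were taken by gene symbol from the deposited table, and all 10 were found among its 23930 genes. The list was drawn up with the values of these libraries known, Cd177 for its difference between the groups, so the group differences of its members are given as a description and without a test.

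The study exposed Pax7-GFP inducible reporter mice of a C57BL/6 background to room air (normocapnia, 3 libraries, NC1 to NC3) or to a chamber with raised CO2 (hypercapnia, 4 libraries, HC1 to HC4) to ask how chronic CO2 retention affects satellite cells, the stem cells of muscle. Every mouse received tamoxifen, and the exposure of 4 weeks ran from 12 to 16 weeks of age in littermates, per the labels. The number in the strain label runs on from sample to sample, and the sex of the mice is not among the labels. The reporter is switched on by a Cre recombinase at the Pax7 locus, so it marks cells that expressed Pax7 and their progeny. According to the methods the hind leg muscles were injured with cardiotoxin days before the GFP+ cells were sorted, whereas the labels do not mention the injury and the title of the deposited table names a time in hours, a conflict that the sources used here do not settle. The labels do not say whether a library came from 1 mouse, so p-values measure only the spread between these samples, which may be technical in part.

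Neutrophils store antimicrobial proteins in granules that are filled in waves while the cell matures in the bone marrow. Primary granules, filled first, hold myeloperoxidase and elastase, and specific granules, filled later, hold lactoferrin, lipocalin, cathelicidin and the surface glycoprotein CD177. The calcium-binding proteins S100A8 and S100A9 form a heterodimer, calprotectin, that fills the cytosol of mature neutrophils. In injured muscle, neutrophils are among the first cells to enter the tissue.

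Each gene was read through a single amplicon of a targeted panel (AmpliSeq), so values compare a gene between libraries and not genes with each other. They are given in RPM, the reads of a gene scaled to a common library total. Libraries held 14527445 to 23388710 reads, so that 1 read stood for 0.0428 to 0.0688 RPM and 3 reads, taken as the floor, for 0.128 to 0.207 RPM. Since these are bulk samples, fewer cells of a type and less RNA per cell cannot be told apart. In 4 libraries (NC1, NC2, HC1 and HC2) Xist was at 445.2 to 701.2 RPM and the Y-linked Ddx3y at 0, and in the other 3 (NC3, HC3 and HC4) Xist was at 0.125 RPM or less and Ddx3y at 103.4 to 206.2 RPM. This split crosses both groups, and values of the members that turn on it are also given within it. By a chi-square test of their reads over genes, the hypercapnia libraries formed 2 close pairs, HC1 with HC2 (24.6 per degree of freedom) and HC3 with HC4 (27.3), against 105 to 135 between these pairs and 372 to 528 among the normocapnia libraries. All differed by more than counting noise and were kept as separate libraries, so SDs and SEs over the 4 hypercapnia libraries treat these pairs as independent.

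The promoters of 5 members are shown because these genes carry the contrast described below: Cd177 parted the groups, and S100a8, S100a9, Retnlg and Ltf varied together without regard to them. Each line holds the 250 bases before the start of the gene, 5' to 3' on the strand of the gene, from RefSeq on GRCm38.p6, at chr7:24760312-24760561 (minus strand) for Cd177, chr3:90668821-90669070 (plus) for S100a8, chr3:90695722-90695971 (minus) for S100a9, chr16:48872358-48872607 (plus) for Retnlg and chr9:111019042-111019291 (plus) for Ltf. Capitals mark matches, on either strand, to GAGGAA (the core of PU.1 sites, read as TTCCTC on the other strand), to TTGCNNAA (a form of C/EBP sites) and to TATAAA (the TATA box). PU.1 and the C/EBP factors are transcription factors of the myeloid lineage.
Cd177: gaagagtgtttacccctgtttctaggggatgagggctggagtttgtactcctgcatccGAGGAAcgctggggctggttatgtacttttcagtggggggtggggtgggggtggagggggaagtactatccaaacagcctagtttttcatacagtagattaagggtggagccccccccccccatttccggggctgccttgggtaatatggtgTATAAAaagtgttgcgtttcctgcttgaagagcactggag
S100a8: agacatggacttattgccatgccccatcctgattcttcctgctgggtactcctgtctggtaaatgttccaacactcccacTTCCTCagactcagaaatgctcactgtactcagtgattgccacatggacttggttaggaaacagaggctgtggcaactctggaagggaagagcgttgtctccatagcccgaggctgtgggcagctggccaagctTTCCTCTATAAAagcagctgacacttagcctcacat
S100a9: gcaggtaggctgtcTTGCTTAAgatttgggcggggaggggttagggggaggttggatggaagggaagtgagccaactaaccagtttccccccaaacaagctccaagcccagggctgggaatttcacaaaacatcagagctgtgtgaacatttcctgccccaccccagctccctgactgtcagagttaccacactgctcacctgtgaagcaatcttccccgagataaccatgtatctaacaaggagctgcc
Retnlg: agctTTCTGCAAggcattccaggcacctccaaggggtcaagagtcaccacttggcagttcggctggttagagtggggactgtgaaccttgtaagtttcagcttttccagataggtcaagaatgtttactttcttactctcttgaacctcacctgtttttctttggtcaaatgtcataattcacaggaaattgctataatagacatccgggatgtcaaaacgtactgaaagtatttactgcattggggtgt
Ltf: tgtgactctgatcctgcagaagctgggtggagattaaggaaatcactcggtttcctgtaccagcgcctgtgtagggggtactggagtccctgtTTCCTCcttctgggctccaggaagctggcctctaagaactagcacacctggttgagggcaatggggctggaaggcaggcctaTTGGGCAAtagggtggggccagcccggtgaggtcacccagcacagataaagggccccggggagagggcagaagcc
The Cd177 promoter held GAGGAA at 192 to 187 bases and TATAAA at 40 to 35 bases before the start, and no match to TTGCNNAA. S100a8 also held both TATAAA, at 30 to 25 bases, and the PU.1 core, at 170 to 165 and again at 36 to 31 bases, where it ends directly before the TATA box. In S100a9 and Retnlg the only match was to TTGCNNAA, at 236 to 229 and 246 to 239 bases, and Ltf held the PU.1 core at 157 to 152 bases and TTGGGCAA at 75 to 68 bases. Among all 10 members, GAGGAA was found in 6, TTGCNNAA in 5 and TATAAA in 2, against 23.3%, 9.56% and 12.4% of 32851 mouse promoters of the same length. These matches are letters in a window, not sites shown to be bound. S100a8 and S100a9 are next to each other on chromosome 3 with 0 coding genes between them, while Camp, Ngp and Ltf lie on chromosome 9 with 8 and 20 coding genes in the gaps. Cd177 lies on chromosome 7 between Lypd11 and Ceacam10.

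Cd177 was higher in every hypercapnia library than in any normocapnia library. CD177 is a glycoprotein anchored to the neutrophil membrane that binds the endothelial adhesion molecule PECAM1 and, in human neutrophils, holds proteinase 3 at the surface. In library order its level was 3.57, 2.95 and 3.03 RPM in normocapnia against 10.5, 13.6, 30.4 and 29.1 RPM in hypercapnia, from 80, 69 and 44 reads and 245, 270, 487 and 430 reads. The normocapnia libraries lay within 1.21-fold of each other, whereas the hypercapnia libraries formed a lower pair (HC1, HC2) and an upper pair (HC3, HC4) whose means stood 2.48-fold apart. The group means were 3.18 RPM ± 0.336 (SD, n = 3) and 20.9 RPM ± 10.3 (SD, n = 4), a ratio of 6.57. On the log2(RPM + 1) scale used for all differences here, which understates the change of low genes, the difference was 2.26 (SE 0.42). Of the 23930 genes, 14 had a larger fitted log2 difference, a rank that restates the choice of Cd177 for its difference. Within the libraries with Xist, the Cd177 mean went from 3.26 RPM in normocapnia to 12.0 RPM in hypercapnia (3.69-fold), and within those with Y-linked genes, where NC3 is the only normocapnia library, from 3.03 to 29.8 RPM (9.83-fold).

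Of the 10 members, 1 (Cd177) lay past both thresholds of the study (unadjusted p under 0.05, fold above 1.5), which is no test of a gene chosen for its difference, and the same 1 had groups that did not overlap. Over all genes, 2.57% passed these thresholds in limma (1.43% higher and 1.14% lower in hypercapnia) and 4.83% had groups apart (2.53% higher, 2.3% lower). Among genes that averaged 1 RPM or more, 4.75% passed and 7.72% had groups apart. Nothing is read from the members' counts, since the list was chosen on this contrast. By fitted difference, 4 members lay above 0, 5 below and 1 at 0, with a median of -0.02, beside 0.02 over all genes and 0.16 over the 12504 genes that averaged 1 RPM or more. Of the members, 5 reached that mean (Cd177, S100a8, S100a9, Retnlg and Lcn2) and 5 did not (Ltf, Camp, Ngp, Elane and Mpo).

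**Figure D1:**
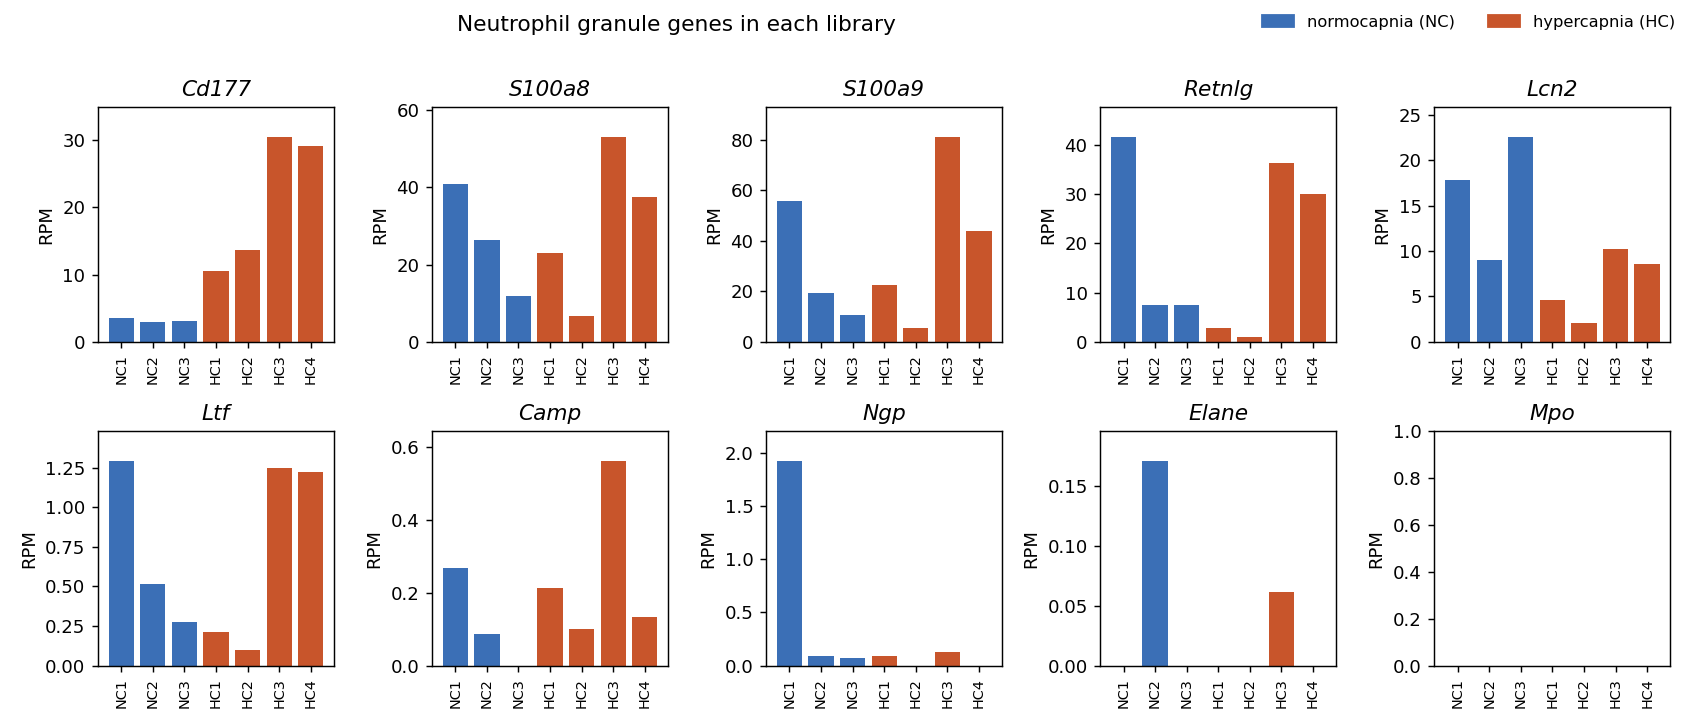
Level of each of the 10 members in RPM (linear axis from 0, its own range per gene) in each library, with normocapnia in blue and hypercapnia in orange. Cd177 is at 2.95 to 3.57 RPM in normocapnia and at 10.5 to 30.4 RPM in hypercapnia, S100a8, S100a9, Retnlg and Ltf are highest in NC1, HC3 and HC4, and Mpo is at 0 throughout.

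S100a8 and S100a9, the calprotectin subunits, did not part the groups. S100a8 was at 40.8, 26.3 and 11.9 RPM in normocapnia and at 23.1, 6.63, 52.9 and 37.6 RPM in hypercapnia. S100a9 was at 55.6, 19.2 and 10.7 RPM in normocapnia and at 22.4, 5.28, 80.9 and 43.9 RPM in hypercapnia. For both genes the 3 highest libraries were HC3, NC1 and HC4 and the lowest was HC2, so the groups overlapped over most of their range. The log2 differences were 0.02 (SE 0.80) for S100a8 and 0.19 (SE 1.04) for S100a9, each smaller than its error, and that of S100a8 was -0.11 under median-of-ratios scaling and -0.13 after quantile normalization. Within the libraries with Xist the S100a9 mean went from 37.4 RPM in normocapnia to 13.9 RPM in hypercapnia (ratio 0.37, log2 difference -1.48), and within those with Y-linked genes from 10.7 to 62.4 RPM (ratio 5.85). S100a8 took the same directions, with ratios of 0.443 and 3.8. The reads behind these values ran from 132 to 915 for S100a8 and from 105 to 1295 for S100a9, so counting error is small beside the 7.97-fold and 15.3-fold ranges across libraries. The ratio of S100a9 to S100a8 stayed within a 2.09-fold range (0.732 in NC2 to 1.53 in HC3).

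Retnlg, which encodes a secreted resistin-like protein of bone marrow and neutrophils, had the widest range of the 5 members above 1 RPM. Normocapnia libraries held 41.5, 7.48 and 7.43 RPM, and hypercapnia libraries 2.83, 0.904, 36.4 and 30.1 RPM. The same libraries, NC1, HC3 and HC4, were high, and HC2 was again the lowest, 45.9-fold below NC1. The log2 difference was -0.59 (SE 1.36). Both its lowest and its second highest value fell in hypercapnia. Without NC1, or without HC2, the difference was 0.18.

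Lcn2, the siderophore-binding lipocalin of specific granules that epithelial cells and macrophages also make, had the lowest difference of the 5 members averaging 1 RPM or more. It was at 17.8, 9.02 and 22.5 RPM in normocapnia and at 4.58, 2.11, 10.2 and 8.53 RPM in hypercapnia, from 42 to 399 reads. The highest hypercapnia library (HC3) exceeded the lowest normocapnia library (NC2), so the groups overlapped by this pair alone. The means were 16.4 RPM ± 6.85 (SD, n = 3) and 6.37 RPM ± 3.7 (SD, n = 4), with a log2 difference of -1.32 (SE 0.56). The ratio of its hypercapnia to its normocapnia mean was 0.249 within the libraries with Xist and 0.417 within those with Y-linked genes.

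Ltf, Camp and Ngp, 3 further specific granule genes, had means under 1 RPM, and Camp and Ngp were near or under the floor in most libraries. Ltf (lactoferrin, an iron-binding protein) was at 1.29, 0.513 and 0.275 RPM in normocapnia and at 0.214, 0.1, 1.25 and 1.22 RPM in hypercapnia. These are 29, 12 and 4 reads and 5, 2, 20 and 18 reads, so that the exact Poisson 95% interval, which covers counting error only, ran from 0.866 to 1.86 RPM in NC1 and from 0.0122 to 0.363 RPM in HC2. NC1, HC3 and HC4 were thus the high libraries for Ltf as well, and the log2 difference was -0.03 (SE 0.37). Camp (cathelicidin, an antimicrobial peptide) gave 6, 2 and 0 reads in normocapnia and 5, 2, 9 and 2 reads in hypercapnia, at most 0.562 RPM. With 26 reads in all, the log2 difference of Camp was 0.16 (SE 0.15), and the groups overlapped. Ngp (neutrophilic granule protein, a cystatin-like protein) gave 43 reads in NC1, 1.92 RPM with an interval of 1.39 to 2.58 RPM, and 0 to 2 reads in each of the other 6 libraries. Its log2 difference of -0.51 (SE 0.38) rests on that library, and without NC1 it was -0.04. The fitted values of Ngp and Camp also depended on the pseudocount and the tool.

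Of the members, the primary granule genes Mpo and Elane were at or near 0. Prtn3, a primary granule gene outside the members, reached 1.52 RPM in NC1. Mpo (myeloperoxidase, the enzyme that makes hypochlorous acid) had 0 reads in all 7 libraries, and the floor of 3 reads allows a level of up to 0.128 to 0.207 RPM depending on the library. Elane (neutrophil elastase, a serine protease) had 4 reads in NC2 (0.171 RPM, above the floor of 0.128 RPM there), 1 read in HC3 and 0 in the others. No fold is given for either gene from so few reads. An amplicon at 0 does not show that a transcript is absent. C1qa, 1 of 12 macrophage markers, was under 1 RPM in all libraries while those markers summed to 11138.9 RPM or more.

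Seen across libraries, S100a8, S100a9, Retnlg and Ltf varied together, whereas Cd177, Lcn2 and Ngp followed them less closely. Over the 7 libraries S100a8 and S100a9 had a Pearson r of 0.981 (Spearman 0.964) on the log2(RPM + 1) scale, and r was 0.973 over the 5 libraries left without the 2 farthest from the S100a8 median. S100a9 and Retnlg had an r of 0.899 (Spearman 0.857, and 0.777 over 5 libraries), and Retnlg and Ltf an r of 0.971 (Spearman 1, and 0.967). S100a8 and Cd177 had an r of 0.269 (Spearman 0.357, and 0.486), and S100a9 and Lcn2 an r of 0.435 (Spearman 0.321, and -0.129). Ngp, nearly all of whose reads came from NC1, had an r of 0.413 with the mean of S100a8 and S100a9. For these descriptions the points share the panel, the scaling and the cell makeup of a library. For S100a8, S100a9, Retnlg and Ltf the 3 libraries NC1, HC3 and HC4 all lay above the other 4, an order that 24.7% of the 12504 genes averaging 1 RPM or more also had, so it does not single out granule genes.

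**Figure D2:**
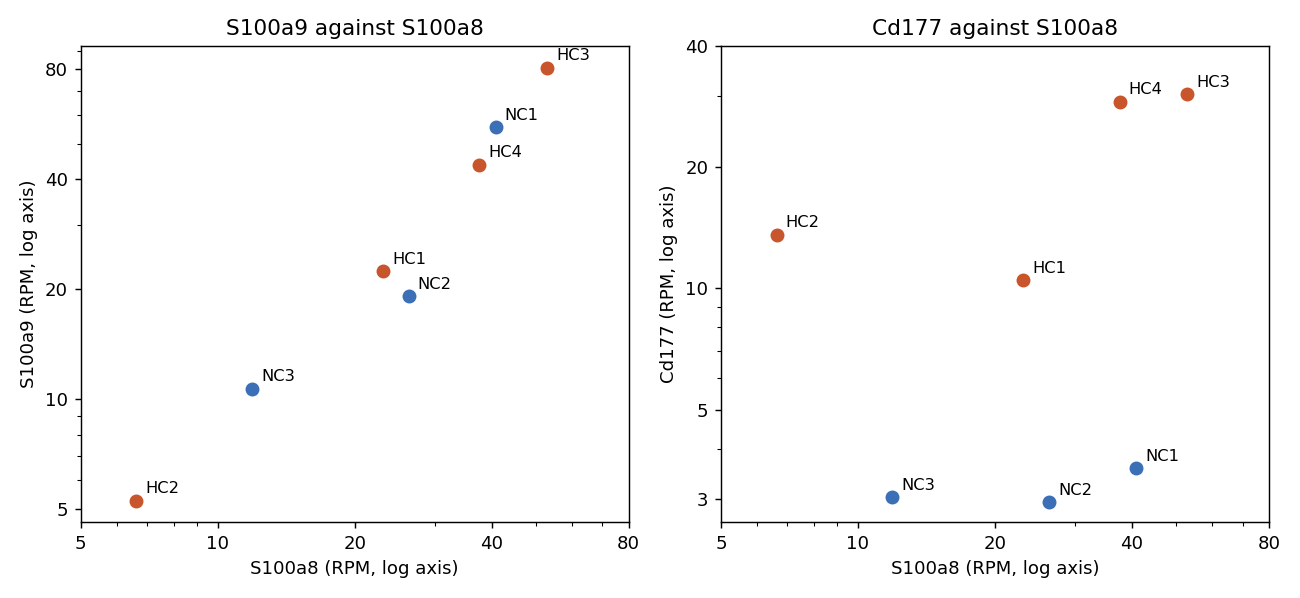
Level of S100a9 (left) and of Cd177 (right) against S100a8 in the 7 libraries, in RPM on log axes, with normocapnia in blue and hypercapnia in orange. S100a9 tracks S100a8 (r = 0.981), whereas at like S100a8 levels, such as NC1 (40.8 RPM) and HC4 (37.6 RPM), Cd177 is at 3.57 and 29.1 RPM.

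Set against S100a8, Cd177 moved from 0.0874 reads per S100a8 read in NC1 to 2.05 in HC2, a 23.4-fold range. The ratio was at 0.0874, 0.112 and 0.254 in normocapnia and at 0.454, 2.05, 0.576 and 0.775 in hypercapnia, so it parted the groups as Cd177 itself, chosen for its difference, already did. A high ratio in HC2 goes with the lowest S100a8 level of all. Against Csf3r, the receptor for the growth factor of neutrophils, chosen after its values were seen, the ratio ran from 0.0469 to 0.0873 in normocapnia and from 0.164 to 0.353 in hypercapnia. Against Mmp8 the groups overlapped, with 0.473, 0.173 and 0.181 in normocapnia and 0.303, 0.503, 0.87 and 0.892 in hypercapnia. Once each library's deviation from its own group mean was taken, Cd177 had an r of 0.876 with Retnlg, 0.860 with Ltf, 0.711 with Lcn2, 0.690 with S100a9, 0.651 with S100a8, 0.467 with Camp and 0.134 with Ngp. Within hypercapnia, HC3 and HC4 were above HC1 and HC2 for Cd177, Retnlg, Ltf, Lcn2, S100a9 and S100a8, by 2.48-fold for Cd177, 3.04-fold for S100a8 and 17.8-fold for Retnlg. HC1 and HC2 are the Xist libraries of hypercapnia, and HC3 and HC4 those with Y-linked genes. Cd177 varied little within normocapnia, so its r of deviations rests mainly on this split. How many of all genes had such an r was not counted.

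**Figure D3:**
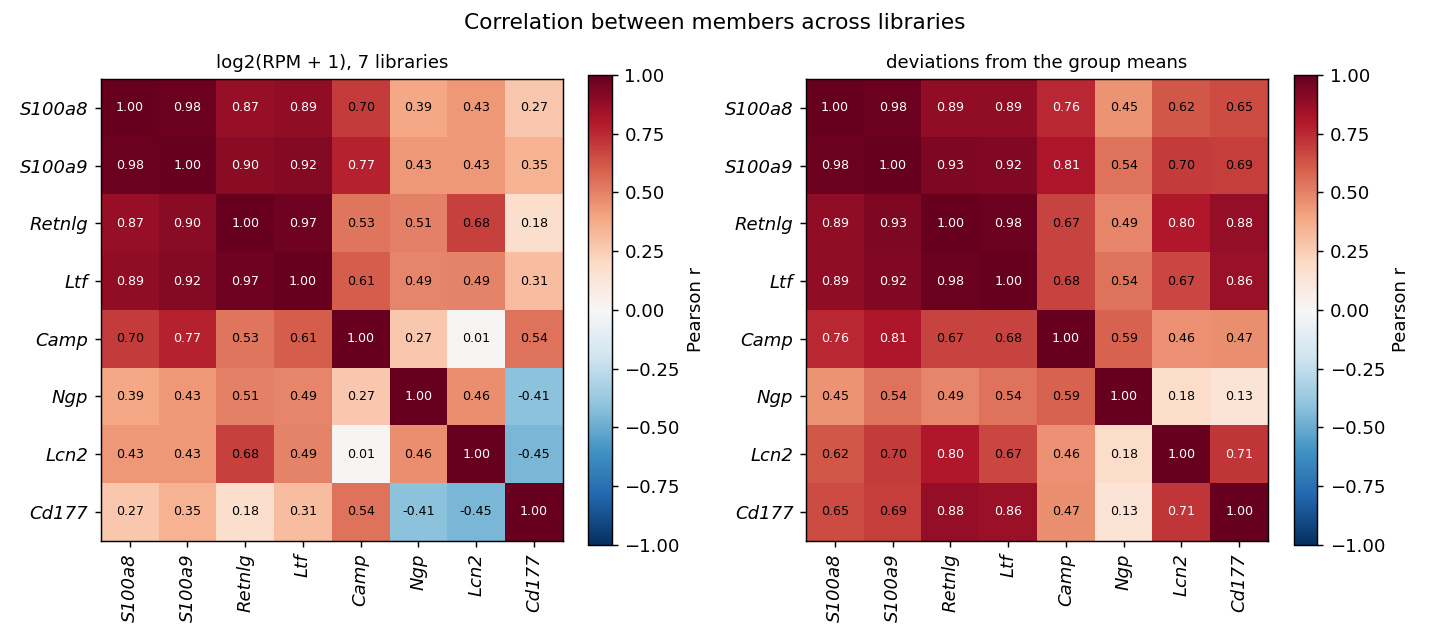
Pearson r between pairs of 8 members (Mpo and Elane left out) on log2(RPM + 1) over the 7 libraries (left) and on deviations from the group means (right), with the value in each cell. In the left panel Cd177 has r = 0.269 with S100a8 and r = -0.454 with Lcn2, and in the right panel these are 0.651 and 0.711.

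Among 8229 genes averaging 10 RPM or more, those most like Cd177 over the 7 libraries included Ralb (r = 0.967), Stard4 (0.956), Lilra6 (0.944), Tti1 (0.941), Slamf8 (0.934), Smarcd2 (0.929) and B4galt5 (0.926). None of these 7 genes is a member or stands in the lists of neutrophil genes below, and in all 7 the groups did not overlap, which a high correlation with Cd177 favors. The lists were written from general knowledge, so absence from them does not show that a gene has no part in neutrophils. B4galt5, a galactosyltransferase of the Golgi, was at 47.1, 51.2 and 36.6 RPM in normocapnia and at 95.9, 92.8, 103.0 and 106.6 RPM in hypercapnia. Lilra6, a receptor of the leukocyte immunoglobulin-like family, was at 53.9 to 69.7 RPM in normocapnia and at 92.4, 87.9, 162.7 and 215.6 RPM in hypercapnia, so HC3 and HC4 formed the upper pair here too. Slamf8, a SLAM family receptor of myeloid cells, went from 12.7 to 17.2 RPM in normocapnia to 18.8 to 34.2 RPM in hypercapnia. Stard4, a cholesterol carrier, was at 4.36 to 7.63 RPM and 13 to 17.9 RPM.

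The genes most like the mean of S100a8 and S100a9 were Zdhhc13 (r = 0.975), Gbe1 (0.967), Atp2a3 (0.946), Il1r2 (0.941), Cma1 (0.941), Cdh5 (0.941), Vamp4 (0.933) and St3gal4 (0.930). They include a decoy receptor for interleukin 1 that neutrophils carry (Il1r2), the mast cell chymase Cma1 and the endothelial cadherin Cdh5, and 0 of the 8 were called in limma, all with an unadjusted p above 0.05. Il1r2 was at 81.7, 29.5 and 23.5 RPM in normocapnia and at 17.4, 5.38, 153.9 and 105.4 RPM in hypercapnia. Cma1 was at 674.2, 356.6 and 289.5 RPM and at 350.2, 246.8, 694.1 and 718.8 RPM. Cdh5 was at 41.6, 20.2 and 10.5 RPM and at 17.3, 8.04, 81.7 and 74.8 RPM. All 3 had NC1, HC3 and HC4 on top as calprotectin did, though not in the same order, and they were picked for this likeness.

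Several marker lists moved with that order and others did not. The summed level of 8 endothelial markers was 229.4, 111.2 and 92.9 RPM in normocapnia and 64.0, 52.7, 554.0 and 423.2 RPM in hypercapnia. The 6 mast cell markers summed to 956.3 to 1221.8 RPM in normocapnia and to 610.5 to 1689.0 RPM in hypercapnia, and the 8 fibro-adipogenic markers to 1118.7 to 1969.2 RPM and 996.9 to 2481.6 RPM, in each case highest in HC3 and HC4 and then in NC1. No marker of these 3 lists was at 0 in all libraries, and 1, the endothelial Sox17, was under 1 RPM in all. The 12 satellite markers, those of the cells the sort was meant to collect, had the same 3 libraries on top, with 3903.7, 226.8 and 92.1 RPM in normocapnia and 486.8, 432.0, 1289.1 and 992.7 RPM in hypercapnia. The 5 platelet markers ran the other way, with 350.0 RPM in NC1, 1047.4 RPM in HC3 and 993.4 RPM in HC4 against 2370.3 to 2703.2 RPM in the other 4 libraries. The 12 macrophage markers were lowest in NC1 (11138.9 RPM), highest in NC3 (33664.3 RPM) and at 18180.8 to 22926.3 RPM in hypercapnia. The part of these cell types in the member values was not tested.

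Neutrophil markers outside the members gave a mixed account. Ly6g, the defining surface marker of mouse neutrophils, was at 0 to 0.125 RPM, which is under the floor in each library. The 6 of 8 such markers found in the table (Ly6g, Cxcr2, Csf3r, Il1r2, Mmp8 and Mmp9) summed to 370.4 to 1462.0 RPM in normocapnia and to 255.7 to 532.8 RPM in hypercapnia, of which Mmp9 alone was 157.8 to 1376.8 RPM. A list of 8 genes that mark the neutrophil cluster of the study's own single-cell data from other mice (Il1r2, Cxcr2, Cd101, G0s2, Pglyrp1, Il1f9, Asprv1 and Nlrp12) had r of 0.793 to 0.977 with the mean of S100a8 and S100a9 but of 0.081 to 0.528 with Cd177, and Il1r2 and Cxcr2 are also among the 6 markers above. On deviations from the group means, r for Il1r2, Cxcr2, Cd101, G0s2 and Il1f9 was 0.845 to 0.978 with that mean and 0.759 to 0.866 with Cd177. Pglyrp1, Asprv1 and Nlrp12 were not compared in this way. Of the 8 genes of the list, 0 were called and 0 had groups apart, with log2 differences of -0.25 to 0.50, and 6 had NC1, HC3 and HC4 above the other 4 libraries. G0s2, an inhibitor of lipolysis picked from them after its values were seen, was at 40.9, 4.23 and 5.58 RPM in normocapnia and at 4.28, 2.06, 36.9 and 21.2 RPM in hypercapnia, close to the order of Retnlg.

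The companion lists were fitted with limma over all 23930 genes, in which 0 genes had an adjusted p under 0.05 (1114 had an unadjusted p under 0.05, and the lowest adjusted p was 0.351). With edgeR this was also 0 (806 unadjusted), and with DESeq2 29 (1351 unadjusted), of which 0 stood in the 7 companion lists. The calls below are therefore those of the unadjusted thresholds alone. Of 25 other granule genes, 1 was called higher and 1 lower (8% against 2.57% of all genes), with a median log2 difference of 0.00. Mmp8, the neutrophil collagenase of specific granules, was at 7.54, 17 and 16.7 RPM in normocapnia and at 34.6, 27, 35 and 32.6 RPM in hypercapnia, without overlap. Its log2 difference was 1.25 (SE 0.30, limma adjusted p = 0.809). It thus shared with Cd177 the separation of the groups but not the upper pair in HC3 and HC4, and the r of their deviations from the group means was -0.018.

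Lyz1, a lysozyme gene with a near-identical neighbor (Lyz2) whose reads may not be told apart from its own, was the granule gene called lower. It was at 102.4, 183.2 and 287.1 RPM in normocapnia and at 109.8, 62.4, 63 and 78.3 RPM in hypercapnia, where HC1 exceeded NC1. The log2 difference was -1.19 (SE 0.40, limma adjusted p = 0.915). The 3 of the list with the highest RPM, which ranks amplicons and not transcripts, were the oxidase subunits Cyba and Cybb and the gelatinase Mmp9, and none was called. Mmp9 stood at 1376.8 RPM in NC2 and at 157.8 to 294.8 RPM in the other 6 libraries, and its log2 difference was -1.12 (SE 0.65).

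Of 26 neutrophil identity genes found of 32, 1 was called higher and 1 lower (7.69%), with a median of -0.07. Padi4, the enzyme that citrullinates histones in neutrophils, was at 3.84, 16.1 and 5.99 RPM in normocapnia and at 35.4, 42.8, 22.2 and 15.2 RPM in hypercapnia. Its highest hypercapnia libraries were HC1 and HC2, the reverse of Cd177, and HC4 lay below NC2 (log2 difference 1.74, SE 0.56, limma adjusted p = 0.915). Wfdc21, a small secreted protein, was at 1.92, 4.83 and 2.55 RPM and at 0.942, 0.553, 1.19 and 0.339 RPM, without overlap (-1.19, SE 0.30, limma adjusted p = 0.827). The 3 with the highest RPM, the lectins Clec4d and Clec4e and the receptor Cd300lf, were not called, with log2 differences of -0.23, 0.18 and 0.56.

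**Figure D4:**
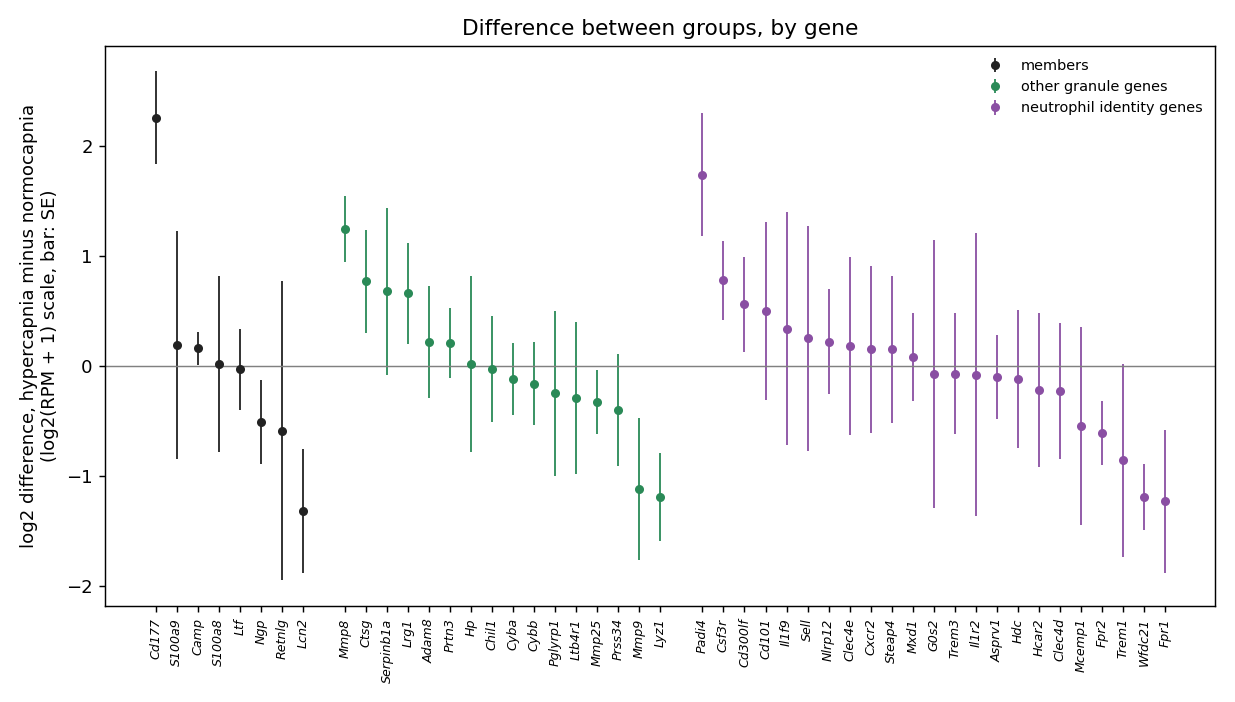
Log2 difference (hypercapnia minus normocapnia, log2(RPM + 1) scale) for 8 members, without Mpo and Elane, and for the other granule and neutrophil identity genes that reached 1 RPM in any library, with SE as bars. Cd177 (2.26), chosen for its difference, is the highest point, next are Padi4 (1.74) and Mmp8 (1.25), and S100a8, S100a9 and Ltf lie within their SE of 0.

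Of the 8 transcription factors of neutrophil development, 0 were called by limma (1 had an unadjusted p under 0.05), while edgeR called 1 of the 7 it tested and DESeq2 1 of 8. Over all genes these tools called 6.03% of 13293 and 5.45% of 23930. Cebpb, a C/EBP factor, was at 2343.6 RPM in NC3 and at 224.4 to 695.8 RPM in the other 6 libraries. Spi1, which encodes PU.1, was likewise at 1459.5 RPM in NC3 and at 432.5 to 518.4 RPM elsewhere. Apart from NC3 the level of Spi1 was thus nearly flat, and its log2 difference was -0.51 (SE 0.46). Runx1 was at 381.5 to 446.4 RPM in normocapnia and at 274.6 to 391.2 RPM in hypercapnia, a log2 difference of -0.35 (SE 0.13) that stayed under the fold threshold. The median of the list was -0.35.

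The 4 genes for binding partners of CD177 did not follow it. Limma, edgeR and DESeq2 called 0 of them, limma gave 0 an unadjusted p under 0.05, and their median log2 difference was 0.21. Itgam and Itgb2, the 2 chains of the integrin Mac-1, were at 846.8 to 2721.1 RPM and 366.1 to 1579.9 RPM in normocapnia, and at 1391.0 to 1509.2 RPM and 719.1 to 826.8 RPM in hypercapnia. Both thus had hypercapnia values inside the normocapnia range. Pecam1 was at 132.5, 55.7 and 55.8 RPM in normocapnia and at 28.2, 26.2, 316.8 and 229.1 RPM in hypercapnia, with HC3 and HC4 on top as for Cd177 but HC1 and HC2 below all of normocapnia. Prtn3, which encodes proteinase 3, a serine protease of primary granules, was at 0.069 to 1.52 RPM in normocapnia and at 0.937 to 1.36 RPM in hypercapnia.

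Of 13 receptor genes for the secreted proteins, 1 was called higher (7.69%), with a median of -0.04. This was Cap1, an actin regulator that also binds resistin, at 120.1, 208.0 and 91.8 RPM in normocapnia and at 329.2, 308.9, 198.2 and 214.6 RPM in hypercapnia (log2 difference 0.95, SE 0.34, limma adjusted p = 0.915). HC3 lay below NC2, so the groups overlapped. Cd14, a co-receptor of the S100A8 and S100A9 receptor TLR4, was at 430.8 to 3031.3 RPM and at 813.8 to 1137.8 RPM, and Lrp1 and Cd36, scavenger receptors, had log2 differences of 0.16 and -0.64 with SE of 0.47 and 0.67. Of 8 protease inhibitor genes found of 11, limma and edgeR (which tested 6) called 0 and DESeq2 1, with 0 at an unadjusted limma p under 0.05. Their median was -0.31, and Timp1, Serpinb1a and Serpina3n, those with the highest RPM, had log2 differences of -0.37, 0.68 and -0.94.

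Of 12 signals that draw or expand neutrophils, limma called 0 and gave 0 an unadjusted p under 0.05, while edgeR called 3 of the 10 it tested and DESeq2 4 of 12, all lower. Over all genes edgeR called 3.82% and DESeq2 3.28% lower. The median was -0.40. Cxcl2, a chemokine that neutrophils follow through the receptor CXCR2, was at 702.1, 4139.5 and 2263.0 RPM in normocapnia and at 1578.0, 1095.2, 1301.2 and 925.3 RPM in hypercapnia. Il1b was at 1061.1, 2243.1 and 209.6 RPM and at 469.5, 243.6, 1776.1 and 1214.2 RPM, so that NC2 rather than NC1 topped its order. Ccl3 was at 367.6 to 1066.4 RPM and at 673.5 to 891.8 RPM. None of these 3 parted the groups.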

How the data were processed

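The 7 libraries of RNA from sorted Pax7-GFP+ cells (3 normocapnia, 4 hypercapnia) were grouped by the treatment label. The authors prepared them with the Ion AmpliSeq mouse panel, read them on an Ion GeneStudio instrument and deposited RPM values, in which the reads of a gene are scaled to the reads assigned to the panel. Aligner, settings and genome build: not given in the sources used here. The software named in the labels, the Transcriptome Analysis Console, was not used. Values were whole multiples of 1 read within 0.05 reads for 100% of values, which returned the library totals, and tested on simulated data the totals came back in 3 of 3 libraries. Each of the 21 library pairs differed beyond counting noise (lowest chi-square over degrees of freedom 24.6).

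Differences were fitted with limma 3.58.1 (R 4.3.3), taking log2(RPM + 1) of all 23930 genes with neither filter nor covariate, and called at the thresholds of the study (unadjusted p under 0.05, fold above 1.5), with Benjamini-Hochberg adjustment beside them. The p-values measure the spread between these libraries. On simulated libraries of the same sizes and 23930 genes, 200 genes averaging 10 RPM or more were changed 4-fold. This fit called 100% of them at a dispersion of 0.02 and 63% at 0.4. Among the unchanged genes averaging 10 RPM or more it called 0.0249% and 6.1%. Genes below that level were not scored. Alternatives were pseudocounts of 0.1 and 5 RPM, only genes averaging 1 RPM, scaling by the median of ratios, quantile normalization, edgeR 4.0.16 and DESeq2 1.42.0 on whole reads, each library left out, and the replicate number as a block. Fits with Xist as a term, and on the 4 libraries with Xist, were chosen after seeing the data.

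The members and lists were chosen with earlier results of these data known. Genes named are the 10 members, the called genes (up to 5) and the 3 with the highest mean RPM of each list, all genes of lists of 5 or fewer, and the 8 genes most correlated with Cd177 and with the mean of S100a8 and S100a9. An item that this rule names is left out of the text. Csf3r and G0s2 were chosen after their values were seen. Members have no p-value because the list was chosen on the contrast. Promoters and gene order come from RefSeq on GRCm38.p6, in which all 10 members were matched.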

Additional observations from a re-analysis of the deposited data

Results flagged for a closer look

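In the 4 hypercapnia libraries, the gap between an end value and its nearest neighbor, divided by the range of the group, passed Dixon's critical value in 2 of 37 tests, a share close to the 1 in 20 that chance alone gives. The gap was 1 of the range for Elane, which has 1 read in HC3 and 0 reads in the other 3 libraries and so reaches 1 by construction, and 0.899 for Ccl3, where HC2 (673.5 RPM) lay below HC1, HC3 and HC4 (866.8 to 891.8 RPM).

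Of the members and the genes named from the companion lists, 7 were lower in hypercapnia in the libraries with Xist (NC1 and NC2 against HC1 and HC2) and higher in those with Y-linked genes (NC3 against HC3 and HC4) in every library. The difference between the 2 log2 differences was 3.14 for S100a8 (-1.32 and 1.82), 1.5 for Ltf (-0.69 and 0.81) and 4.83 for Retnlg (-2.82 and 2.02). It was 3.88 for Pecam1, 1.65 for Timp1, 3.34 for Serpinb1a and 4.99 for Il1b. Genes named for their likeness to S100a8 and S100a9, such as Il1r2, Cma1 and Cdh5, had the same pattern and are not in this count. These differences were not tested, since the second set holds 1 normocapnia library. Opposite directions of this kind were present in 22.1% of the 12504 genes averaging 1 RPM or more. Cd177 was higher in hypercapnia in both sets, as were 10.1% of those genes.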

How the results depend on the processing

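Among all genes, 615 were called (343 higher, 272 lower), against 1304 with DESeq2, 1210 with a Xist term and 1015 in the 4 Xist libraries, and 376 to 1990 when each library was left out (1990 without NC1, 1205 without NC2, 385 without HC1 and 376 without HC2). The split was 336 higher and 357 lower after quantile normalization, 294 and 508 with edgeR and 519 and 785 with DESeq2. Genes averaging 1 RPM or more had a median log2 difference of 0.161, and 0.045, -0.006, -0.009 and -0.040 under median-of-ratios scaling, quantile normalization, edgeR and DESeq2. Of other granule genes, 2 were called, against 4 with a pseudocount of 0.1 RPM, 1 with median-of-ratios scaling, 4 with DESeq2, 1 in the 4 Xist libraries and 1 to 3 with a library left out. Of identity genes, 2 were called, against 1 with a pseudocount of 5 RPM, 1 after quantile normalization, 4 with edgeR, 4 with DESeq2 and 1 to 4 with a library left out. Of transcription factors, 0 were called, against 1 with each of edgeR, DESeq2, the Xist term and the 4 Xist libraries, and 0 to 3 with a library left out. Of CD177 partners, 0 were called, and 0 to 1 with a library left out. Of receptors, 1 was called, against 0 with median-of-ratios scaling, edgeR, DESeq2 or the 4 Xist libraries, and 0 to 3 with a library left out. Of inhibitors, 0 were called, against 1 with DESeq2 and 1 in the 4 Xist libraries. Of recruiting signals, 0 were called, against 3 with edgeR, 4 with DESeq2 and 0 to 2 with a library left out.

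Same-numbered libraries had correlations of deviations of -0.349, 0.503 and -0.044, so the numbers do not pair the samples. With a replicate block, in which HC4 has no partner, 598 genes were called in all, 0 other granule genes, 1 identity gene and 1 transcription factor. The Cd177 difference of 2.26 kept its direction under every alternative run, at 1.57 with a pseudocount of 5 RPM, 1.61 in the 4 Xist libraries and 2.04 to 2.52 with a library left out. Since its groups do not overlap, leaving out libraries or changing the pseudocount could not change its sign. Leaving out 1 library changed the sign for S100a8 (-0.44 to 0.59), S100a9 (-0.34 to 0.9), Retnlg (-1.25 to 0.18) and Ltf (-0.21 to 0.21). A pseudocount of 0.1 RPM and DESeq2 moved Ngp from -0.51 to -1.48 and -3.53 and Camp from 0.16 to 0.73 and 1.09. The calls of Cap1 and Lyz1 were lost in 8 of 17 alternatives, of Padi4 in 7, of Mmp8 in 4 and of Wfdc21 in 3. Where a call was lost the log2 difference kept its sign, at 0.69 to 1.01 for Cap1, -1.33 to -0.72 for Lyz1, 1.35 to 2.13 for Padi4, 1.10 to 1.35 for Mmp8 and -1.25 to -0.48 for Wfdc21. The causes were not tested. Low read counts limit what can be said of Ltf, Camp, Ngp, Elane and Mpo, each with at most 90 reads in all. The 5 members averaging 1 RPM or more had at least 18 reads in every library, the lowest being Retnlg in HC2.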
